A study of Mus musculus with 16 samples.

Results

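Among 13807 genes measured in the cerebellum at postnatal day 6, the rows chr2.296840 and chr5.390473 are 2 disomic genes, present in the usual 2 copies, whose RNA was higher in both Down syndrome mouse models than in euploid littermates. They were chosen from these same data, as the rows that a DESeq2 test called in both models at an adjusted p under 0.05. Their difference between trisomic pups and littermates is therefore given as a description, with no test. In Ts65Dn the mean of chr2.296840 was 1.52 times that of the littermates and the mean of chr5.390473 was 1.46 times, and in TcMAC21 the ratios were 1.35 and 1.44.

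Poly(A) RNA of whole cerebellum was sequenced from 16 animals, 4 per group. Ts65Dn pups and their euploid littermates were on a mixed C57BL/6J x C3H/HeJ background. TcMAC21 pups and their euploid littermates were on a mixed background of C57BL/6J (B6) and DBA/2J (D2). The 8 animals of the Ts65Dn cross came from 2 litters and the 8 of the TcMAC21 cross from 3, so animals of a group are not all independent in parentage. No group received a treatment. The artificial chromosome also expresses GFP, so TcMAC21 pups differ from their littermates by this reporter as well. The labels do not give the sex of the pups.

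Down syndrome is trisomy of human chromosome 21. Ts65Dn mice have a freely segregating extra chromosome with a segment of mouse chromosome 16 and a small piece of chromosome 17, whereas TcMAC21 mice carry nearly all of human 21q on a mouse artificial chromosome. A gene outside the extra material keeps its normal dose, and a change in its RNA between genotypes is thus a change at a gene whose copy number did not change. In the first postnatal days the mouse cerebellum holds many dividing granule cell precursors and young granule cells, and both models have a small cerebellum.

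The identifiers hold a chromosome and a running number from the transcript assembly and no gene symbol. The study discusses Snhg11 and Lrch4 among its disomic genes. Snhg11 is a long non-coding RNA gene that hosts small nucleolar RNAs, and Lrch4 encodes a membrane protein with leucine-rich repeats and a calponin homology domain. In the GENCODE annotation of GRCm39, the build to which the reads were mapped, Snhg11 lies on the plus strand of chromosome 2 from 158217558 to 158228071 and Lrch4 on the plus strand of chromosome 5 from 137627374 to 137639361. The 2 rows are on the matching chromosomes, but a chromosome does not identify a gene, since the table lists 1096 rows on chromosome 2 and 890 on chromosome 5. Neither row is named here, and no exon or sequence is assigned to either. For the same reason the label of cerebellum could not be checked against cell type markers.

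The values are normalized counts, which are read counts divided by 1 size factor per library. They compare animals for 1 gene, and levels of different genes cannot be compared because the gene lengths are not known. From 6317856 to 25719969 reads per library fell on the listed genes. The human chromosome 21 genes took from 0.336% to 0.405% of the normalized counts of each TcMAC21 library and at most 0.00232% of any other library, as the genotype labels say. The library of Ts65Dn euploid replicate 1 stood apart, and several values below are also given without it. Over all genes limma called 0 genes in Ts65Dn with it, where DESeq2 called 317 and limma had 2290 genes at an unadjusted p under 0.05, and limma called 3727 without it.

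The row chr2.296840 was read deeply, with 537 to 3630 reads per library. In Ts65Dn pups its normalized counts were 2435, 2160, 1807 and 1928 in replicates 1 to 4, with a mean of 2082 ± 277 (SD, n = 4). In their euploid littermates they were 1716, 1341, 1187 and 1236, with a mean of 1370 ± 239 (SD, n = 4). All 4 Ts65Dn pups were above all 4 littermates, but the lowest pup and the highest littermate were 91.05 normalized counts apart, a ratio of 1.05. The 95% counting intervals of those 2 animals, 1725 to 1891 and 1615 to 1821, overlapped. The highest littermate was replicate 1, the library that stood apart, and without it the gap was 466.1 normalized counts, a ratio of 1.35. On the log2(normalized count + 1) scale the difference was 0.61 (SE 0.146), and 0.72 without that library.

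In TcMAC21 pups the normalized counts of chr2.296840 were 1689, 2091, 1852 and 2032, with a mean of 1916 ± 182 (SD, n = 4). In their euploid littermates they were 1504, 1266, 1484 and 1404, with a mean of 1415 ± 108 (SD, n = 4). The groups did not overlap, with a gap of 185.04 normalized counts between the lowest pup, replicate 1, and the highest littermate, also replicate 1. The counting intervals of these 2 animals, 1622 to 1758 and 1440 to 1570, did not overlap. The log2 difference was 0.44 (SE 0.118). Without the lowest pup the gap was 347.8 normalized counts.

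The row chr5.390473 had 279 to 1316 reads per library. In Ts65Dn pups its normalized counts were 883, 887, 1027 and 1022, with a mean of 955 ± 80.8 (SD, n = 4). In their euploid littermates they were 677, 692, 617 and 625, with a mean of 653 ± 37.4 (SD, n = 4). The lowest pup and the highest littermate were 190.9 normalized counts apart, a ratio of 1.28. The log2 difference was 0.55 (SE 0.110). Leaving out an animal can only keep or widen this gap, which ran from 190.9 to 206.04 normalized counts as each animal was left out.

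In TcMAC21 pups the normalized counts of chr5.390473 were 694, 848, 928 and 697, with a mean of 792 ± 116 (SD, n = 4). In their euploid littermates they were 539, 615, 559 and 483, with a mean of 549 ± 54.5 (SD, n = 4). Replicates 1 and 4 of the TcMAC21 pups lay close together below replicates 2 and 3, and all 4 were above every littermate by at least 78.59 normalized counts. The highest littermate was replicate 2, and without it the gap was 135.46 normalized counts. Its counting interval, 560 to 675, overlapped those of TcMAC21 replicate 1, 651 to 739, and replicate 4, 626 to 774. The log2 difference was 0.52 (SE 0.142).

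**Figure D1:**
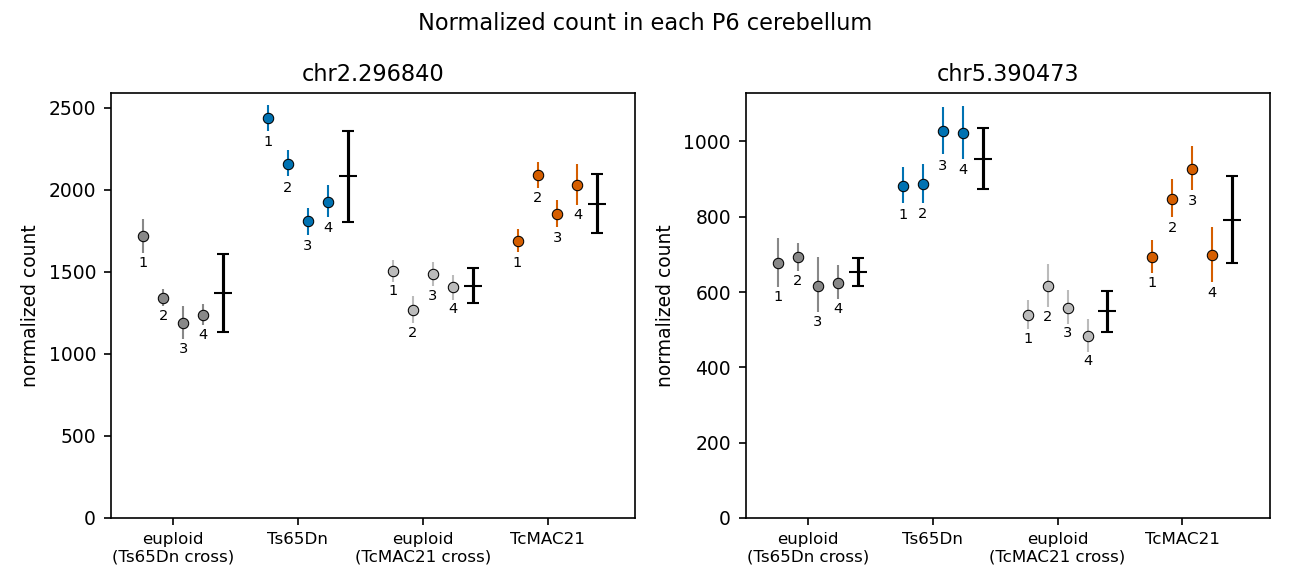
Normalized count of chr2.296840 (left) and chr5.390473 (right) in each P6 cerebellum, with 1 point per animal numbered by replicate, 95% counting intervals as thin bars, and the group mean ± SD (n = 4) in black beside the points. Every trisomic pup is above every littermate of its cross, and the narrowest gap relative to the level is that of chr2.296840 in Ts65Dn, between 1807 in replicate 3 and 1716 in euploid replicate 1.

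Against the mean of its littermates, a single Ts65Dn pup had from 1.32 to 1.78 times as much chr2.296840 RNA and from 1.35 to 1.57 times as much chr5.390473 RNA. For TcMAC21 pups these ranges were 1.19 to 1.48 and 1.26 to 1.69. Because whole cerebella were measured, a change in the number of cells of a type and a change in RNA per cell cannot be told apart.

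The separation can be read against the other disomic genes, taken as all mouse genes outside chromosomes 16 and 17. Of 12320 such genes, 4.04% had a higher value in each Ts65Dn pup than in any littermate, and 1.97% of 12312 were so in TcMAC21. Both rows were among the 16 of 12237 genes, or 0.131%, that were so in both crosses. Leaving out an animal can only raise the share in Ts65Dn and the number in both crosses. Without Ts65Dn euploid replicate 1 they were 18.2% and 162 genes, and without 1 of the 7 others of that cross they were 4.59% to 8.04% and 17 to 35 genes, the upper values without Ts65Dn replicate 1. DESeq2 called 0.787% of the disomic genes as higher in Ts65Dn and 0.0487% as higher in TcMAC21. Since the rows were chosen on these contrasts, their places in these shares follow from the choice.

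The log2 fold changes of the 16 genes ran from 0.22 to 0.96 in Ts65Dn and from 0.22 to 0.69 in TcMAC21. By the smaller of its 2 gap ratios, 1.13, chr5.390473 ranked 2nd of the 16, and chr2.296840 ranked 8th with 1.05, beside a median of 1.05 and a highest value of 1.16. Without Ts65Dn euploid replicate 1 the smaller ratios were 1.13 for chr5.390473, 13th of 162 genes, and 1.12 for chr2.296840, 16th. Fold changes of this size were found in other disomic genes too. In Ts65Dn, 260 disomic genes had a log2 fold change at least that of chr2.296840 and 388 at least that of chr5.390473, and in TcMAC21 these numbers were 498 and 279. In both models at once, 79 genes reached the fold changes of chr2.296840 and 77 those of chr5.390473, each count including the row itself.

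**Figure D2:**
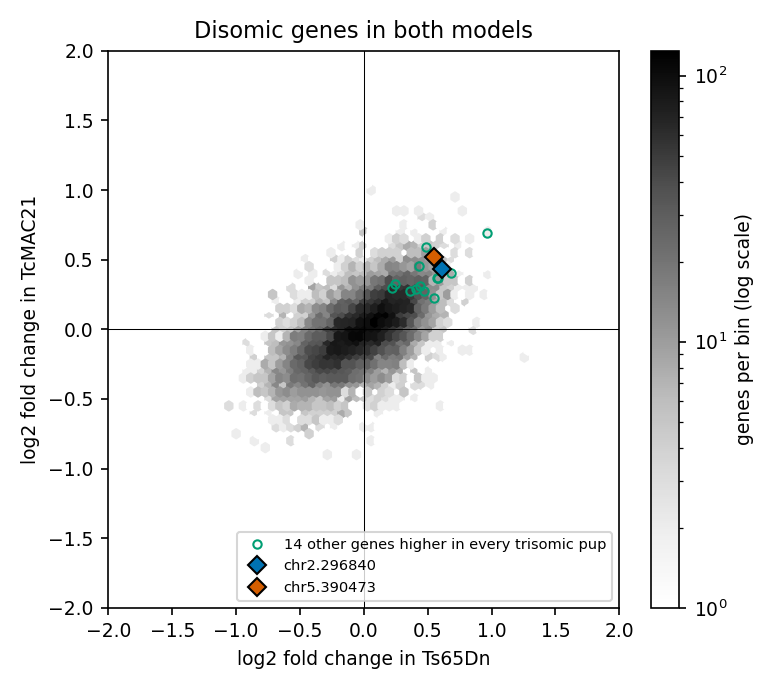
Log2 fold change of disomic genes in Ts65Dn (horizontal axis) and TcMAC21 (vertical axis), trisomic pups minus euploid littermates, as a density of genes per bin on a log scale, with 12235 of 12237 genes inside the axes. The diamonds mark chr2.296840 (0.61 and 0.44) and chr5.390473 (0.55 and 0.52), which lie among the 14 other genes that were higher in every trisomic pup of both crosses (circles).

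The spread between animals entered the DESeq2 test by which the rows were chosen, so a low spread follows in part from the choice and is given as a description. The pooled within-group SD of chr2.296840 was 0.18 on the log2 scale, beside a median of 0.22 over the 3261 other disomic genes with a mean count within a factor of 2, of which 29.2% had a smaller SD. For chr5.390473 it was 0.15, beside a median of 0.24 over 4535 genes, of which 13.1% had a smaller SD. The coefficient of variation of chr2.296840 was 7.63% to 17.5% in the 4 groups, where counting alone gave 2.10% to 2.99%, and that of chr5.390473 was 5.73% to 14.6%, where counting gave 3.07% to 4.32%.

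Both rows were close to the threshold by which they were chosen. With DESeq2 the larger of the 2 adjusted p-values of chr5.390473 was 0.0468 and that of chr2.296840 was 0.0483, both in TcMAC21. In Ts65Dn they were 7.18e-04 and 0.0162. The first row outside the threshold was chr10.69580, with 0.0540 in TcMAC21, 1.31e-06 in Ts65Dn and larger log2 fold changes than either member, 0.97 in Ts65Dn and 0.71 in TcMAC21. Its normalized counts in TcMAC21, from 1791 to 2891, were also above those of every littermate, from 1100 to 1674. With the deposited size factors in place of the factors DESeq2 estimates, the TcMAC21 values were 0.0511 for chr2.296840 and 0.0592 for chr5.390473, so that neither row was called.

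The call, unlike the fold change, moved with single animals. Genotype was the only term in these DESeq2 fits, with no pairing of animals. When each of the 8 animals of a cross was left out of DESeq2 in turn, chr5.390473 stayed under 0.05 in Ts65Dn in 8 of 8 fits, with adjusted p-values up to 0.0497. It stayed under 0.05 in TcMAC21 in 2 of 8, without TcMAC21 replicate 1 or replicate 4, and reached 0.507 without replicate 3. The row chr2.296840 stayed under 0.05 in 3 of 8 fits in Ts65Dn and in 1 of 8 in TcMAC21. Its adjusted p in Ts65Dn ran from 3.80e-06 without euploid replicate 1, the library that stood apart, to 0.195 without euploid replicate 4. In TcMAC21 it ran from 0.0363 without TcMAC21 replicate 1 to 0.414 without euploid replicate 2. The DESeq2 log2 fold changes of chr2.296840 over the same fits were 0.53 to 0.73 in Ts65Dn and 0.39 to 0.50 in TcMAC21, and those of chr5.390473 were 0.51 to 0.58 and 0.46 to 0.60.

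The sizes of the change in the 2 models were set side by side with the interaction of cross and genotype over all 16 animals, also as a description. The log2 fold change of chr2.296840 was larger in Ts65Dn by 0.17 (SE 0.187), with a 95% interval from -0.22 to 0.57. It was 0.29 (SE 0.163) without Ts65Dn euploid replicate 1 and 0.10 (SE 0.187) without Ts65Dn replicate 1. For chr5.390473 the difference was 0.03 (SE 0.174), with an interval from -0.34 to 0.39. Its sign was not stable, with -0.03 when scaled by total reads and values from -0.03 to 0.10 with 1 animal left out. As ratios of the fold changes these intervals ran from 0.859 to 1.48 and from 0.789 to 1.31. Since the rows were chosen on both fold changes and on the spread, these intervals describe the precision only.

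The labels give no pairs. Replicate numbers were taken as pairs of a trisomic pup and a littermate in the TcMAC21 cross, where same-numbered animals deviated together. In these pairs the log2 ratio of chr2.296840 was 0.17, 0.72, 0.32 and 0.53 for numbers 1 to 4, and that of chr5.390473 was 0.36, 0.46, 0.73 and 0.53. Every pair was above 0 for both rows, as any pairing must be when every pup is above every littermate. The pair that was lowest for chr2.296840, number 1, was also lowest for chr5.390473, while the highest pair differed. With the pairs as a replicate block the fold changes stay the same by construction, at 0.44 and 0.52. The SE was 0.101 for chr2.296840 and 0.0896 for chr5.390473. The pairs were inferred from these same data, so a smaller SE follows in part from that choice.

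Comparisons between the crosses, of euploid with euploid and of Ts65Dn with TcMAC21 pups, were not used to choose the rows and could be tested. The spread within groups did enter the choice, so the SE and p-values of these comparisons may be too small. These comparisons ask whether the level of a gene differs between the 2 colonies, where strain background, litters and handling cannot be told apart. Between the trisomic pups the kind of extra chromosome differs as well and cannot be told apart from these. For each contrast limma was run over all genes, and each row was also compared by a two-sided exact permutation test, 4 comparisons in all, whose smallest possible p is 0.0286. Of all genes tested, limma called 0.134% between the euploid groups and 2.37% between the trisomic groups, and neither row was among them.

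Among euploid animals no difference of chr2.296840 between the 2 crosses was detected. The log2 difference of the Ts65Dn cross from the TcMAC21 cross was -0.06 (SE 0.141), with a 95% interval from -0.37 to 0.25 (limma, adjusted p = 0.886, and exact permutation p = 0.714). Its sign was not stable, since scaling by total reads gave 0.03, and it was -0.17 without Ts65Dn euploid replicate 1. The row chr5.390473 was higher in all 4 euploid animals of the Ts65Dn cross, by 0.25 on the log2 scale (SE 0.127, 95% interval -0.03 to 0.53). Its exact permutation p was 0.0286, or 0.114 after Benjamini-Hochberg adjustment over the 4 comparisons, and the limma adjusted p was 0.401. The lowest of one group and the highest of the other, 616.60 and 615.41, were 1.19 normalized counts apart, and 5.07% of disomic genes were separated in this direction between the euploid groups. The difference of chr5.390473 was thus not called over all genes, and the separation of the groups was far inside counting error.

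Among trisomic pups the log2 difference of Ts65Dn from TcMAC21 was 0.12 for chr2.296840 (SE 0.129, 95% interval -0.17 to 0.40, limma adjusted p = 0.638, exact permutation p = 0.371). That value was 0.04 without Ts65Dn replicate 1, 0.06 without TcMAC21 replicate 1 and 0.05 with the chromosome Y covariate. For chr5.390473 it was 0.28 (SE 0.134, interval -0.02 to 0.57, limma adjusted p = 0.267, exact permutation p = 0.114). The groups overlapped for both rows, whereas 5.17% of disomic genes had a higher value in each Ts65Dn than in any TcMAC21 pup. In 14 of 16 pairings of a Ts65Dn with a TcMAC21 pup the Ts65Dn pup had more chr5.390473 RNA, and for chr2.296840 this was so in 11 of 16.

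The order of the 4 group means was therefore Ts65Dn, TcMAC21, TcMAC21 euploid and Ts65Dn euploid for chr2.296840, where the 2 trisomic and the 2 euploid groups did not differ beyond their spread. For chr5.390473 the order was Ts65Dn, TcMAC21, Ts65Dn euploid and TcMAC21 euploid. Its levels in TcMAC21 pups, from 694 upwards, came within a few normalized counts of those in the euploid animals of the other cross, up to 692.

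The groups also differed in features of the libraries and animals. The most-read gene, chr9.506830, took 1.73% to 2.395% of reads in Ts65Dn, 2.303% to 4.67% in their littermates, 2.66% to 3.96% in TcMAC21 and 3.05% to 4.44% in theirs. Euploid replicate 1 of the Ts65Dn cross, with 4.67%, had both the highest share of this gene and the highest chr2.296840 value of any euploid animal. As CPM, counts scaled by the total reads of the library instead of a size factor, the Ts65Dn groups of chr2.296840 overlapped in 1 of the 16 pairings, since the lowest pup had 117.98 CPM and that littermate 118.71 CPM, and in 15 of 16 the pup was higher. The other 3 contrasts of a row with its littermates were separated in 16 of 16 on this scale too. The summed normalized counts of chromosome Y genes were above 1000 in 2 of 4 Ts65Dn pups, 2 of 4 of their littermates, 4 of 4 TcMAC21 pups and 3 of 4 of theirs, and under 10 in the rest. With the chromosome Y level in the fit as a covariate, the log2 fold changes in TcMAC21 were 0.43 for chr2.296840 and 0.47 for chr5.390473. In the Ts65Dn cross, both kinds of pup lay above both kinds of littermate for each row, for chr2.296840 from 1807 to 2160 with chromosome Y counts and from 1928 to 2435 without.

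Within groups, no common movement of the 2 rows was detected. The size of the deviations from the group means entered the choice of the rows, but their correlation between the rows did not. They had a Pearson r of -0.09 (exact permutation within groups, p = 0.728, adjusted p = 0.859 over 5 relations, n = 16) and a Spearman rho of -0.11 (exact permutation p = 0.694, adjusted p = 0.912). Without the 2 animals farthest from the median of chr2.296840, Ts65Dn replicate 1 and Ts65Dn euploid replicate 1, r was -0.10 (exact permutation p = 0.781, n = 14). Without Ts65Dn euploid replicate 1 alone it was -0.22 (exact permutation p = 0.477). Within the Ts65Dn cross r was -0.17 and within the TcMAC21 cross -0.04. Ts65Dn replicates 1 and 2 were the higher pair for chr2.296840 and the lower pair for chr5.390473. No relation of the deviations to the depth of the library was detected, with r of 0.09 for chr2.296840 (exact permutation p = 0.829, rho 0.15, p = 0.640) and 0.06 for chr5.390473 (exact permutation p = 0.859, rho -0.14, p = 0.635). Without the 2 shallowest libraries, Ts65Dn euploid replicate 3 and TcMAC21 replicate 4, the values were -0.03 and -0.40 (exact permutation p = 0.953 and p = 0.0940, n = 14). With the share of the most-read gene, r was 0.27 for chr2.296840 (exact permutation p = 0.455, rho 0.11, p = 0.730) and -0.07 for chr5.390473 (exact permutation p = 0.789, rho 0.03, p = 0.926). The first of these fell to -0.10 without euploid replicates 1 and 2 of the Ts65Dn cross, and the second was then -0.08 (exact permutation p = 0.768 and p = 0.838). Adjusted over the 5 relations, every Pearson p was 0.859.

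**Figure D3:**
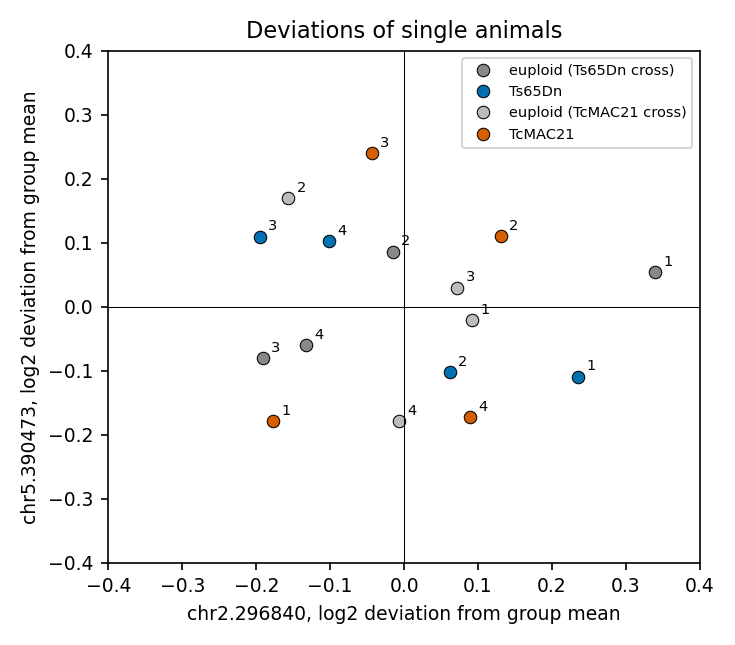
Deviation of each animal from the mean of its group in log2(normalized count + 1), for chr2.296840 (horizontal axis) and chr5.390473 (vertical axis), with 16 animals coloured by group and numbered by replicate. The points show no common direction (r = -0.09), and Ts65Dn euploid replicate 1 is farthest to the right.

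The genes most like each row were sought by the Pearson r of log2 levels over the 16 animals among 13423 mouse genes, a description in which the group means and the shared libraries both enter. For chr2.296840 the nearest was chr12.123541, with r = 0.925 and mean normalized counts of 11003 in Ts65Dn, 6875 in their littermates, 11125 in TcMAC21 and 7425 in theirs. After group means were removed their r was 0.78, and in the Ts65Dn euploid group, where replicate 1 was high for both, it was 0.9997. It was 0.911 in Ts65Dn, 0.822 in TcMAC21 and 0.336 in the TcMAC21 euploid group. Without Ts65Dn euploid replicate 1, r over 15 animals was 0.925, and chr12.123541 was 2nd, behind chr2.267017 with 0.930. In all, 27 genes had an r over 0.8 with chr2.296840, and 54 without that replicate.

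For chr5.390473 the nearest was chrX.515543, with r = 0.925, or 0.57 after group means were removed, and mean normalized counts of 599 in Ts65Dn, 440 in their littermates, 489 in TcMAC21 and 393 in theirs. The 2nd was chr10.69580, the row just outside the threshold, with r = 0.921, or 0.88 after group means were removed. It was 1st, with 0.926, when Ts65Dn euploid replicate 1 was left out, and the number of genes with an r over 0.8 then rose from 50 to 149. The 10 nearest genes of the 2 rows had 0 in common and came from 7 chromosomes in each case. With each other the 2 rows had an r of 0.707 over all animals, which placed chr5.390473 at rank 129 for chr2.296840 and chr2.296840 at rank 258 for chr5.390473.

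The running numbers may follow the order of genes along a chromosome, which the files do not state. The 5 listed genes on each side of chr2.296840 by this number had a median log2 fold change of 0.08 in Ts65Dn, from -0.59 to 0.41, and of -0.02 in TcMAC21, from -0.69 to 0.35. Of these 10 genes 6 were above 0 in Ts65Dn and 4 in TcMAC21, beside 50.8% and 49.7% of all disomic genes. The next genes below and above, each 3 numbers away, were at 0.34 and -0.59 in Ts65Dn and at 0.16 and -0.21 in TcMAC21. The level of chr2.296840 moved more than any of the 10 in the direction of higher RNA in both models. This follows in part from the choice of the row as raised in both.

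The listed genes around chr5.390473 had a median of 0.16 in Ts65Dn over 9 genes tested, from -0.02 to 0.73, with 8 of 9 above 0, and 0.14 in TcMAC21 over 10 genes, from -0.04 to 0.80, with 8 of 10 above 0. All genes of chromosome 5 had a median of 0.04 in both models. In each model 1 neighbour had a larger fold change than chr5.390473, a different one in each. The one in TcMAC21, with 0.80, had a mean normalized count of 8.99 over the 16 animals and was below the minimum mean in the Ts65Dn cross, where it was not tested. Of the 20 neighbours of the 2 rows 1 was higher in every Ts65Dn pup, beside 4.04% of all disomic genes. In both crosses 0 of the 20 were higher in every trisomic pup. With a share of 0.131% over all disomic genes, that count tells nothing about the neighbours.

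**Figure D4:**
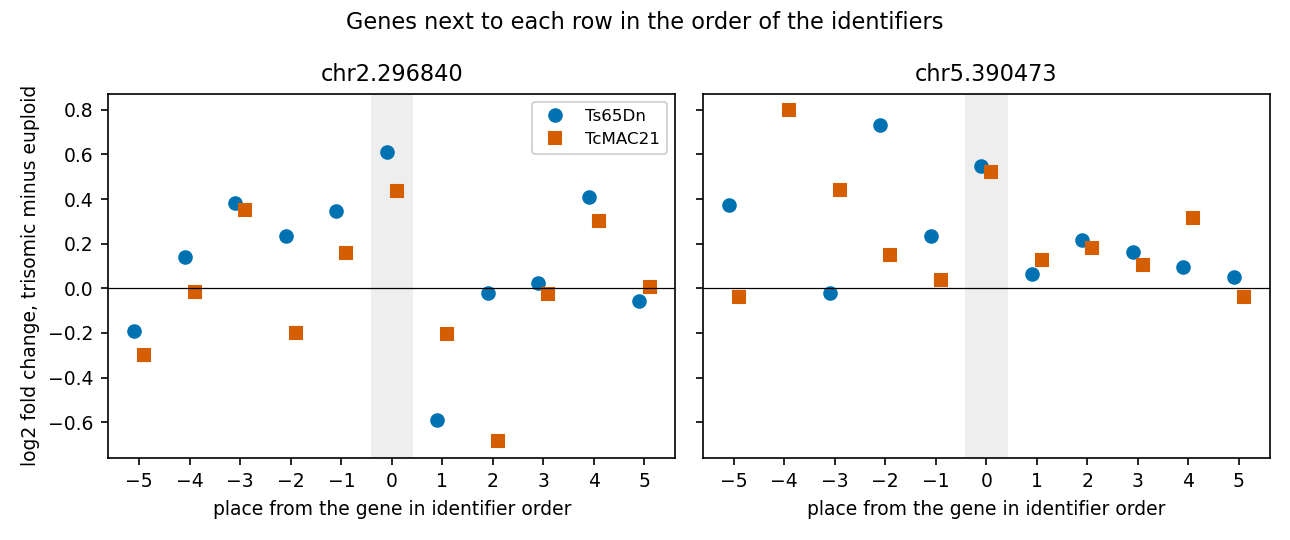
Log2 fold change (vertical axis) of the 5 listed genes on each side of chr2.296840 (left) and chr5.390473 (right) in the order of the identifier numbers, with the row itself at 0 in the shaded band, for Ts65Dn (circles) and TcMAC21 (squares). The neighbours of chr2.296840 scatter around 0, with medians of 0.08 and -0.02, and those of chr5.390473 lie mostly above it, with medians of 0.16 and 0.14.

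Other ways of computing the fold changes moved them little. Under every other scaling, filter, pseudocount, tool and set of animals tried, all 76 fold changes of the 2 rows were above 0. With limma and 1 animal left out they ran from 0.53 to 0.72 for chr2.296840 and 0.51 to 0.58 for chr5.390473 in Ts65Dn, and from 0.38 to 0.49 and 0.44 to 0.58 in TcMAC21.

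**Figure D5:**
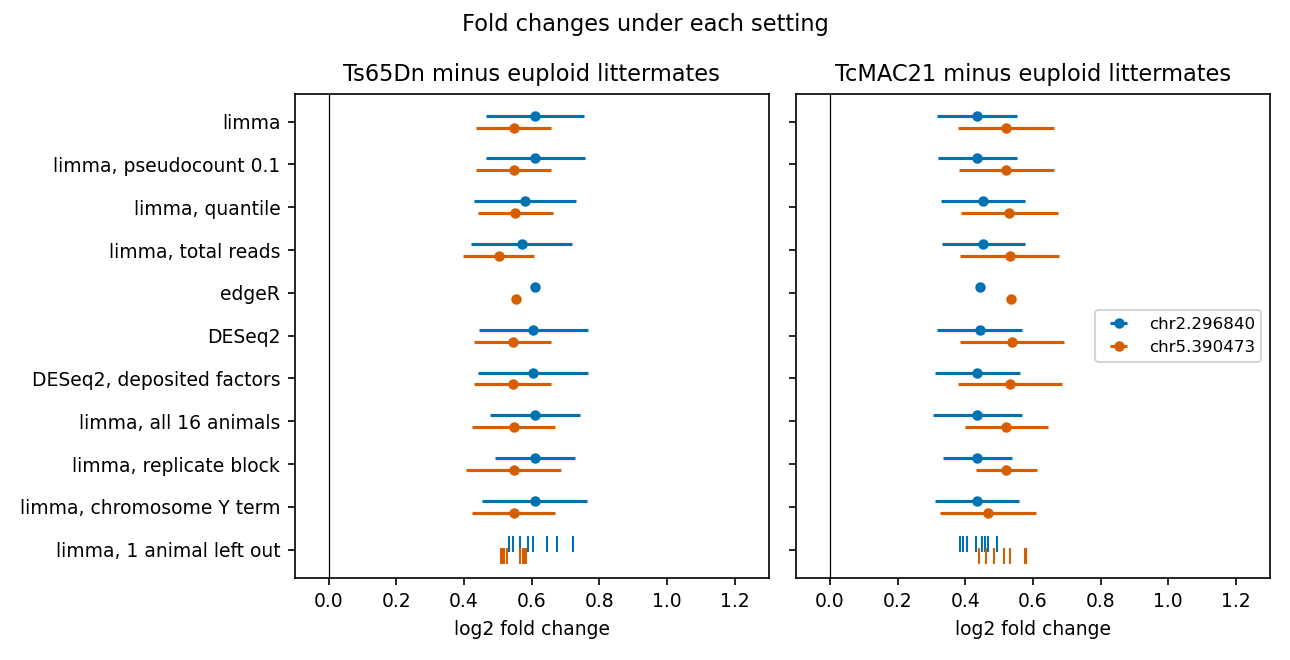
Log2 fold change (horizontal axis) of chr2.296840 (blue) and chr5.390473 (orange) in Ts65Dn (left) and TcMAC21 (right) under the settings listed at the left, as points with bars of ± 1 SE, without bars for edgeR, which gives no SE, and with 1 tick per animal left out in the last line. All values are above 0, for rows that were chosen as raised, and the lowest is 0.38, for chr2.296840 in TcMAC21 with 1 animal left out.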

How the data were processed

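The authors mapped paired reads with STAR 2.4.2a to mm39 plus human chromosome 21, built gene models jointly across the libraries (PsiCLASS) and deposited a normalized count signal, the DESeq2 read count divided by 1 size factor per library. Each library's values were whole multiples of its value for 1 read (100% within 0.1 reads), which gave back the reads. A count of 3 reads, the detection floor, was below the minimum mean. Intervals cover counting error only.

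Limma 3.58.1 (lmFit, eBayes with trend; R 4.3.3) was run on log2(normalized count + 1) over genes with a mean of at least 10, with Benjamini-Hochberg adjustment at 0.05. edgeR 4.0.16 and DESeq2 1.42.0 on the recovered reads were alternatives. Permutation tests used Python 3.11.15 and SciPy 1.17.1. Replicates are separate pups of few litters, so p-values measure the spread between these pups. The limma, edgeR and DESeq2 fits of each contrast were first tried on simulated counts with the same dispersion for every gene.

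The members and lists were chosen with earlier results of these data known. The genes named were the 2 rows and the gene most like each by r. The row just outside the threshold and the leading gene without 1 library were named after their values were seen. Replicate numbers were taken as pairs in the TcMAC21 cross, where same-numbered animals deviated together over mouse genes (r of 0.491, 0.502, 0.197 and 0.500), and not in the Ts65Dn cross (-0.451, -0.135, -0.354 and -0.224).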

Additional observations from a re-analysis of the deposited data

How the results depend on the processing

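Of 221 values under other settings, 208 kept their sign, 76 of them fold changes of rows that were chosen as raised. The other 13 changed it, 7 of them the difference of the fold change of chr5.390473 between models, 0.03, which ran from -0.034 to 0.10. No tested value between the crosses passed the threshold for either row. The DESeq2 calls of both rows in TcMAC21 were lost with the deposited size factors (adjusted p = 0.0511 for chr2.296840 and 0.0592 for chr5.390473). The difference of chr2.296840 between the euploid groups, -0.06, was 0.0027 with quantile normalization and 0.030 with scaling by total reads, and ran from -0.17 to 0.0052 with each animal left out. The correlation of the 2 rows, -0.09, ran from -0.26 to 0.026 with each animal left out, and was -0.12 with the replicate block. The differences of chr5.390473 between crosses stayed above 0 and uncalled, from 0.19 to 0.33 among euploid animals (limma, edgeR or DESeq2 adjusted p from 0.268 to 0.632) and from 0.22 to 0.36 among trisomic pups (0.203 to 0.559).

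In the Ts65Dn cross, whose numbers were not taken as pairs, a replicate block gave the same fold changes, 0.61 and 0.55, with an SE of 0.119 for chr2.296840 and 0.139 for chr5.390473.

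The counts of called genes behind the background shares moved far more. Limma called 18 genes between the euploid groups, 8 of them higher in the Ts65Dn cross, or 11 of 19 with scaling by total reads. DESeq2 called 462, limma with all 16 animals 144 and limma with a chromosome Y term 4, and with 1 animal left out the count ran from 3, without Ts65Dn euploid replicate 4, to 261, without Ts65Dn euploid replicate 1. Between the trisomic groups limma called 321 genes, DESeq2 881 and limma with a chromosome Y term 135, and with 1 animal left out from 164, without Ts65Dn replicate 4, to 979, without TcMAC21 replicate 4. The cause was not tested. With 4 animals per group and a shallowest library of 6317856 reads, a difference between crosses under the bounds of the intervals given cannot be resolved. DESeq2 with the deposited size factors, DESeq2 with animals left out and the gaps with animals left out were added after the data were seen.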
